A study of Mus musculus with 9 samples.

Results

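The immediate early response genes described here are 10 mouse genes, *Fos*, *Fosb*, *Jun*, *Junb*, *Egr1*, *Ier2*, *Atf3*, *Klf6*, *Dusp1* and *Zfp36*, of 48709 genes in a count table of duodenum RNA. They were chosen by symbol, and each matched 1 gene of the table. RNA of the duodenum, the part of the small intestine next to the stomach, was sequenced 6 h after male C57Bl6 mice (C57BL/6 J in the study's methods) of 10 weeks had been treated per os, with 3 libraries for each treatment label. One group received 1,25D3 and ZK, one 1,25D3 and one vehicle, which was sunflower oil. 1,25D3 (calcitriol) is the hormonal form of vitamin D and the ligand of the vitamin D receptor (VDR), and ZK (ZK168281) is a VDR antagonist derived from it. All mice were wild type, and the doses given to the sequenced mice were not stated in the sources used here.

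The treatment labels were first checked with *Cyp24a1*, the classical VDR target that encodes the 1,25D3-inactivating enzyme. Its level followed the number on the label and not the treatment on it. Levels are given as CPM, read counts scaled to library size, with the trimmed mean of M values (TMM CPM). *Cyp24a1* was at 4.05, 9.13 and 2.47 in the libraries labelled 1,25D3 and ZK 3, 1,25D3 3 and vehicle 3. It reached 7633, 6425 and 7537 in those with number 2, and 6.14, 2.50 and 2.70 in those with number 1, under the same treatment labels. Of 7 VDR targets that the study names, *Cyp24a1* among them, all 7 were called higher in number 2 than in number 1. Their median log2 fold change was 2.53. The study does not state whether any were chosen after these libraries were seen, so they may not be an independent check. Each number covers 1 library of each treatment label, and the labels do not say whether it marks a litter, a batch or a day. Treatment labels, or the digits that tie columns to samples, may have been exchanged between libraries, which the sources used here do not settle. A difference between numbers may therefore be one between treatments and is assigned to neither a treatment nor a batch. Libraries are called by their labels, and the members were compared both by number and by treatment label. Any direction between treatments rests on labels that *Cyp24a1* contradicts. Markers of mature enterocytes, the main cells of the duodenal lining, summed to 42920 to 62790 TMM CPM in number 3, 51150 to 56540 in number 2 and 60440 to 62010 in number 1.

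Depth was 22561400 to 41207455 counts per library. All 10 members passed the filter of more than 100 reads over the 9 libraries, as did 15002 genes in all. The most reads were assigned to *Zfp36* (38021 in total), *Fos* (36254) and *Klf6* (32590), and the fewest to *Fosb* (382, with 21 to 89 per library), *Dusp1* (1502) and *Egr1* (2204). Levels of the last genes thus carry the largest counting error. No pair of libraries agreed within sampling noise, which alone gives a chi-square averaging about 1 over genes: the closest pair, labelled 1,25D3 and ZK 1 and vehicle 1, gave 1.84. The library labelled 1,25D3 3 gave 2.00 with that labelled 1,25D3 1, but 171 and 173 with those labelled 1,25D3 and ZK 3 and vehicle 3. Where nothing but a figure legend says that libraries came from separate mice, p-values measure the spread between these libraries.

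Immediate early genes are transcribed within minutes of a stimulus, without new protein synthesis, because the factors that switch them on are already present in the cell. Growth factor and stress signals reach them mainly through the MAP kinases, which activate ternary complex factors bound beside serum response factor at the CArG box, and CREB and ATF proteins at the cAMP response element (CRE). Their transcripts are short-lived. Many encode transcription factors, and others encode inhibitors that end the same response, such as the phosphatase DUSP1, which dephosphorylates MAP kinases, and tristetraprolin, the product of *Zfp36*, which promotes decay of AU-rich mRNAs. Dissection, dissociation and ischemia are known to raise these transcripts in many tissues, so the way a tissue was handled is a usual concern when they are measured. Blood was drawn before the mice were killed by cervical dislocation, and tissues were processed at once or frozen, but the labels give no order, time or operator of collection. A part of tissue handling in the differences below was therefore not tested.

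Promoter windows are shown because several members changed together between library numbers. A window of 300 bases, from 250 bases before the transcription start to 50 bases after it, was found in RefSeq (GRCm38.p6) for 8 of the 10 members, and not for *Egr1* and *Ier2*. The windows of *Atf3*, *Dusp1* and *Zfp36* lie inside the genes as annotated below, at a start that is not the outermost one. Other starts of these genes were not searched. Both strands were searched for the CArG box, the CRE TGACGTCA, its core TGACGT, the related site TGACATCA, the AP-1 site TGACTCA, the TATA box TATAAA and the VDR direct repeat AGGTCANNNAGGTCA. The core TGACGT is contained in the CRE, so matches to these overlap. Capitals in the sequences mark matches on either strand.
Fos, chr12:85473640-85473939, plus strand: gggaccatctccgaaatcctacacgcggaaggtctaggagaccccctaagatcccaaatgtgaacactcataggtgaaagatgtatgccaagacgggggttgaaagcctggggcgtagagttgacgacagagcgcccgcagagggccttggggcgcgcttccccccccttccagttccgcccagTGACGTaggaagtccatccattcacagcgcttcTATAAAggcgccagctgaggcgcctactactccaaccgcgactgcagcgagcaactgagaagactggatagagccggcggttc
Atf3, chr1:191183284-191183583, minus strand: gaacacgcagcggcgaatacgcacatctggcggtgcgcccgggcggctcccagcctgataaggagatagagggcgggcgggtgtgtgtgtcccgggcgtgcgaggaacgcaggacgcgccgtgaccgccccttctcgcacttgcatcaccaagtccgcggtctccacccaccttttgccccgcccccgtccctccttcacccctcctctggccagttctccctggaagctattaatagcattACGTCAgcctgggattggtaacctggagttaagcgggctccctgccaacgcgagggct
Dusp1, chr17:26508423-26508722, minus strand: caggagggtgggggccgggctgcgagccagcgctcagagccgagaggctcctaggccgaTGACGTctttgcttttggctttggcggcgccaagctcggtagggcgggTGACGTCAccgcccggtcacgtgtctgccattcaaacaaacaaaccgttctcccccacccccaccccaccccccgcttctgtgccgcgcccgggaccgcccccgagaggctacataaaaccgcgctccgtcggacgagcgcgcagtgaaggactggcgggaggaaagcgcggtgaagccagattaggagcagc
Jun, chr4:95052173-95052472, minus strand: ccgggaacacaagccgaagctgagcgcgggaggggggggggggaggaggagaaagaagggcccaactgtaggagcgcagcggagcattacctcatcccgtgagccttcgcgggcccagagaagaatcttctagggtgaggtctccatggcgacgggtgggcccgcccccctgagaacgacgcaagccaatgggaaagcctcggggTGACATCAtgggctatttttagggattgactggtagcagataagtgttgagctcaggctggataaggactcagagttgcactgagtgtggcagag
Klf6, chr13:5861239-5861538, plus strand: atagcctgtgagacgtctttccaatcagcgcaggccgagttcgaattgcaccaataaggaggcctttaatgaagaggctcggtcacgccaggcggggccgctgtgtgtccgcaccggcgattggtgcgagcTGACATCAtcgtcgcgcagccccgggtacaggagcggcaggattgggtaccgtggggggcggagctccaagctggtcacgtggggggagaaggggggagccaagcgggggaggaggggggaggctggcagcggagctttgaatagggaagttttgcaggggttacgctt
Zfp36, chr7:28379179-28379478, minus strand: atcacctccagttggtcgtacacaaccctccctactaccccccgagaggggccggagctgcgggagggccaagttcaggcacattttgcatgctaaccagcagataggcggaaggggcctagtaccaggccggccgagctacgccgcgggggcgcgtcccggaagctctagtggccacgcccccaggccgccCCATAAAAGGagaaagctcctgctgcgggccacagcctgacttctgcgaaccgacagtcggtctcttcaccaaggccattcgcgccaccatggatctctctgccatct

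The CRE core was found at bases -66 to -61 of *Fos*, on the opposite strand at -8 to -3 of *Atf3*, and in *Dusp1* at -191 to -186 and within a full CRE at -143 to -136. The site TGACATCA was found at -45 to -38 of *Jun* and at -119 to -112 of *Klf6*. *Zfp36* held the only CArG box among the 8 windows, at -58 to -49, and *Fos* a TATA box at -33 to -28. *Junb*, which is not printed, held a TATA box at 1 to 6, and *Fosb* held no match. Of 32851 RefSeq promoter windows of the same length, 7.51% held the CRE core, 1.79% the full CRE, 3.62% TGACATCA, 1.63% a CArG box, 5.2% an AP-1 site and 13.6% a TATA box. The VDR direct repeat was found in 0.00609% of windows and in no member. These matches describe letters only, and no binding was measured.

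Per kilobase of exon, the mean level over the 9 libraries was highest for *Fos* (49.55 TMM CPM per kb) and lowest for *Fosb* (0.203), which encode the FOS-family partners of the AP-1 transcription factor. In order between them came *Zfp36* (36.7), *Junb* (27.3), *Klf6* (23.6), *Jun* (18.9), *Ier2* (16.1), *Atf3* (4.04), *Egr1* (1.59) and *Dusp1* (1.43). Neighbours in this order overlapped in their ranges, except *Ier2* and *Atf3*, and *Dusp1* and *Fosb*. Exon length was the union of all annotated exons, which for *Zfp36* (3470 bases) covers the whole gene. Before division by length *Zfp36* averaged 127.5 TMM CPM and *Fos* 116.5, so which of them ranks first depends on this length. The order thus split into 6 well-expressed genes, 3 at lower levels, and *Fosb*.

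Members were first compared between the library numbers, in which each number has 3 libraries, one for each treatment label. Values of 3 libraries are given in the order 1,25D3 and ZK, 1,25D3, vehicle. A gene was called where edgeR's quasi-likelihood test gave an adjusted p under 0.05 over all 15002 genes and a log2 fold change beyond 0.58 in either direction. The comparisons between numbers share libraries, so they are not independent.

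In the libraries with number 2, 7 of the 10 members were called higher than in those with number 1, and none lower. Over all genes tested, 20.4% were called in this comparison, 12.2% higher and 8.25% lower. Levels did not overlap between the groups in 8 members with number 2 the higher, as in 31.8% of all genes, and in 1 with number 2 the lower, as in 30.0%. The median log2 fold change of the members was 0.86, against 0.03 for all genes tested. *Atf3* differed most, and *Fos*, *Jun*, *Junb*, *Egr1*, *Klf6* and *Dusp1* were higher by similar amounts, with fold changes of 1.77 to 1.97. *Fosb*, *Ier2* and *Zfp36* were not called.

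**Figure D1:**
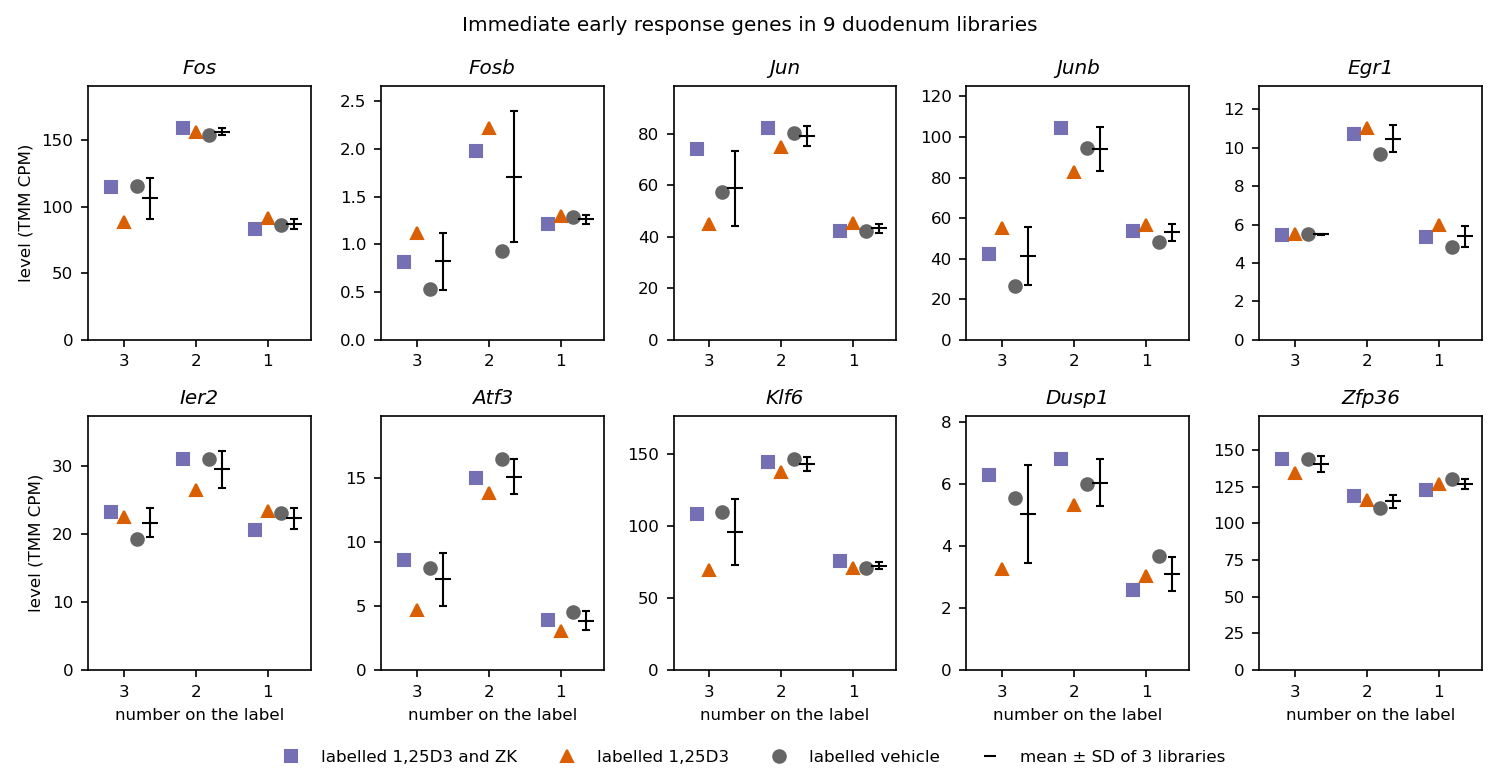
Levels of the 10 members in each library (y axis, TMM CPM, from 0) by number on the label (x axis, 3, 2 and 1), with a symbol for each treatment label and the mean ± SD of the 3 libraries beside them. *Fos*, *Jun*, *Junb*, *Egr1*, *Atf3*, *Klf6* and *Dusp1* were higher in every library with number 2 than in every library with number 1, and the library labelled 1,25D3 3 lies near those with number 1.

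*Fos* encodes the FOS subunit of AP-1. Its transcript level was 159, 156 and 154 TMM CPM in the libraries with number 2, against 83.2, 91.4 and 86.5 in those with number 1. The groups did not overlap, and the log2 fold change was 0.85 (SE 0.10, adjusted p = 0.000281 in edgeR's quasi-likelihood test). The second FOS-family member, *Fosb*, was at 1.98, 2.22 and 0.930 TMM CPM in number 2, against 1.21, 1.30 and 1.29 in number 1. The library labelled vehicle 2, with 29 reads, lay below every library with number 1, and the log2 fold change of 0.45 (SE 0.33, adjusted p = 0.307) was not called.

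Jun proteins are the partners with which FOS proteins form AP-1. The level of *Jun* was 82.1, 74.9 and 80.3 TMM CPM in number 2, against 42.3, 45.2 and 42.1 in number 1. The log2 fold change was 0.87 (SE 0.15, adjusted p = 0.00172), with no overlap. *Junb*, whose product often opposes JUN in proliferation, was at 104, 82.7 and 94.7 in number 2, against 53.7, 56.7 and 48.4 in number 1. Its log2 fold change of 0.83 (SE 0.21, adjusted p = 0.0135) was called with all libraries. Without the library labelled vehicle 1 the adjusted p of *Junb* was 0.056 (log2 fold change 0.77), and without that labelled 1,25D3 and ZK 2 it was 0.0533 (0.74), so the call rests on these libraries.

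*Egr1* encodes a zinc finger factor that binds GC-rich promoter sites. Its level was 10.7, 11.0 and 9.69 TMM CPM in number 2, against 5.34, 5.97 and 4.84 in number 1, with a log2 fold change of 0.96 (SE 0.11, adjusted p = 0.000146). *Klf6*, a Krüppel-like factor also known from tissue injury, was at 145, 138 and 147 in number 2, against 75.4, 71.1 and 71.2 in number 1 (log2 fold change 0.98, SE 0.15, adjusted p = 0.000971). Both genes thus showed about the same fold at very different levels, and within each treatment label the ratio of number 2 to number 1 was 1.85 to 2.01 for *Egr1* and 1.92 to 2.06 for *Klf6*.

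*Atf3* encodes a stress-inducible factor that mostly represses transcription when it acts as a homodimer. Its level was 15.1, 13.8 and 16.6 TMM CPM in the libraries with number 2, against 3.88, 3.08 and 4.58 in those with number 1. Its log2 fold change of 1.98 (SE 0.22, adjusted p = 0.000146) was the largest of the 10. Within the treatment labels the ratio of number 2 to number 1 was 3.61 to 4.49.

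The feedback inhibitors differed from one another. *Dusp1* was at 6.82, 5.31 and 6.00 TMM CPM in number 2, against 2.59, 3.02 and 3.68 in number 1, with a log2 fold change of 0.97 (SE 0.23, adjusted p = 0.00921). *Zfp36* was at 118, 116 and 110.2 in number 2, against 123, 127 and 130.1 in number 1. Its groups did not overlap, but its log2 fold change of -0.14 (SE 0.07, adjusted p = 0.125) was not called, and it was 0.05 when total counts replaced TMM. *Ier2*, a regulator whose product acts in the nucleus, was at 31.1, 26.4 and 31.0 in number 2, against 20.5, 23.4 and 23.1 in number 1. It passed the test but not the minimum fold (log2 fold change 0.40, SE 0.10, adjusted p = 0.0115), and scaling by total counts, under which the median of all genes moved to 0.22, called it at 0.59.

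**Figure D2:**
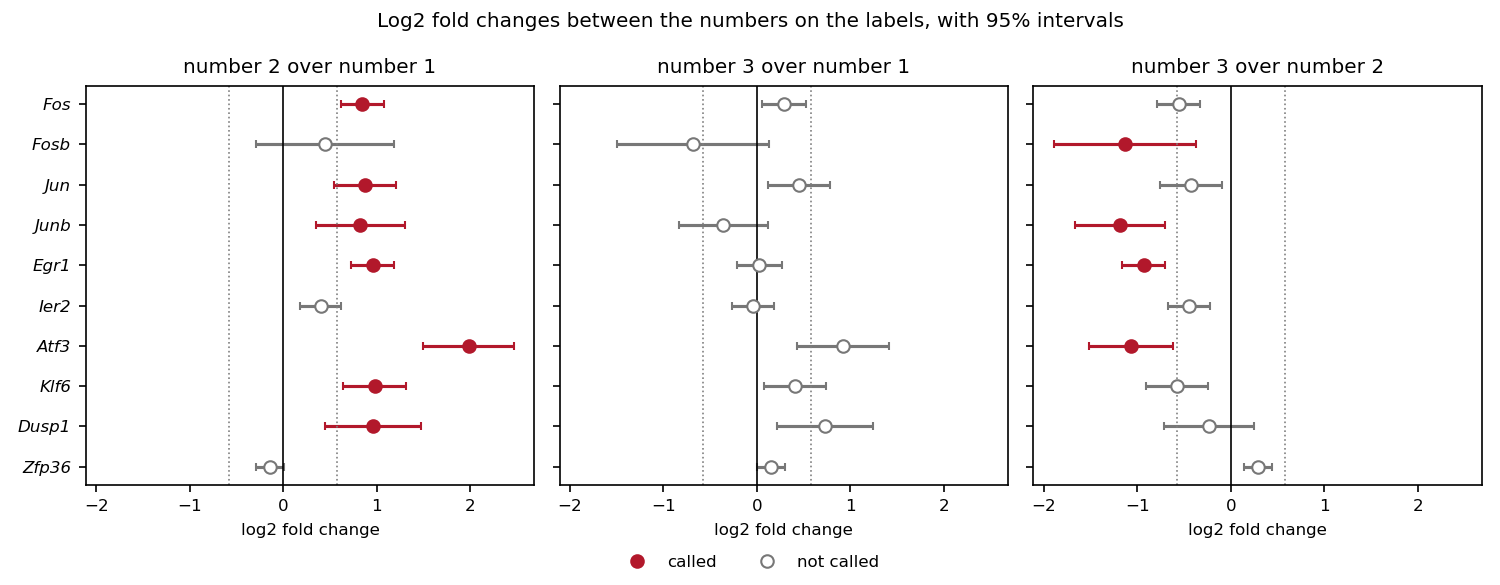
Log2 fold change of each member (x axis) with its 95% interval, for number 2 over number 1, number 3 over number 1 and number 3 over number 2; filled points were called and dotted lines mark the minimum log2 fold change of 0.58. In the first panel 7 members are called higher, in the second none is called, and in the third 4 are called lower.

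The libraries with number 3 were split among themselves. For the members, the library labelled 1,25D3 3 lay with number 1, and the libraries labelled 1,25D3 and ZK 3 and vehicle 3 lay elsewhere. Summed over the 10 genes, the level was 527, 429 and 492 TMM CPM in number 3, 674, 627 and 650.1 in number 2, and 411, 428 and 416 in number 1. The 429 of the library labelled 1,25D3 3 is close to the highest library with number 1.

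Against number 1, no member and no other gene was called in number 3 (0.0% of genes tested) by edgeR's quasi-likelihood test, although 3940 genes had an unadjusted p under 0.05. limma voom also called no gene, and DESeq2 called 398 genes, among them *Atf3* at a log2 fold change of 0.90. The median log2 fold change of the members was 0.22, against 0.01 for all genes. *Atf3* was at 8.59, 4.74 and 8.01 TMM CPM in number 3, against 3.88, 3.08 and 4.58 in number 1. These groups did not overlap, as for 9.75% of all genes with number 3 the higher (8.61% with number 3 the lower), and the log2 fold change was 0.92 (SE 0.22, adjusted p = 0.143).

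The library labelled 1,25D3 3 decided this comparison. Without it, in a fit picked out for its result, 2873 genes (19.2% of those tested, 11.4% higher and 7.74% lower) and 5 members were called. *Jun* (log2 fold change 0.61, SE 0.09), *Atf3* (1.13, SE 0.14), *Klf6* (0.59, SE 0.05) and *Dusp1* (0.94, SE 0.16) were then higher in number 3 than in number 1. *Junb* was lower (-0.62, SE 0.16), at 42.3 and 26.6 TMM CPM in the libraries left, those labelled 1,25D3 and ZK 3 and vehicle 3. With 2 libraries left in number 3, the median of the members was 0.29, against 0.02 for all genes tested.

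*Fos* was at 115, 88.2 and 115 TMM CPM in number 3, against 83.2, 91.4 and 86.5 in number 1. Its log2 fold change was 0.29 (SE 0.10, adjusted p = 0.157), and without the library labelled 1,25D3 3 it was 0.40 with an adjusted p of 4.74e-05, short of the minimum fold. *Klf6* was at 108, 69.4 and 110.0 in number 3 and *Jun* at 74.0, 44.8 and 57.5, against 75.4, 71.1 and 71.2 for *Klf6* and 42.3, 45.2 and 42.1 for *Jun* in number 1. The library labelled 1,25D3 3 lay within the range of number 1 for *Jun* and just below it for *Klf6*, and the other libraries with number 3 lay above that range.

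*Egr1* stayed at the level of number 1 in all libraries with number 3, with 5.48, 5.52 and 5.49 TMM CPM in number 3, against 5.34, 5.97 and 4.84 in number 1 (log2 fold change 0.03, 95% interval -0.21 to 0.27). *Junb* was at 42.3, 55.3 and 26.6 in number 3, against 53.7, 56.7 and 48.4 in number 1, and the library labelled vehicle 3 was the lowest of all 9. *Fosb* was also lowest there, at 0.815, 1.12 and 0.529 in number 3, against 1.21, 1.30 and 1.29 in number 1, with no overlap between the groups and no call (log2 fold change -0.68, SE 0.36, adjusted p = 0.235). The numbers of reads behind *Fosb* were 37, 23 and 21 in number 3.

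*Dusp1* and *Zfp36* completed the comparison. *Dusp1* was at 6.28, 3.27 and 5.54 TMM CPM in number 3, against 2.59, 3.02 and 3.68 in number 1. *Zfp36* was higher in every library with number 3, at 144, 134 and 144, against 123, 127 and 130.1 in number 1, a difference of 0.15 on the log2 scale (SE 0.07, adjusted p = 0.190). *Ier2* was at 23.2, 22.5 and 19.3 in number 3, against 20.5, 23.4 and 23.1 in number 1. Its log2 fold change was -0.05, and 0.18 when total counts replaced TMM, so no direction is given for it.

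**Figure D3:**
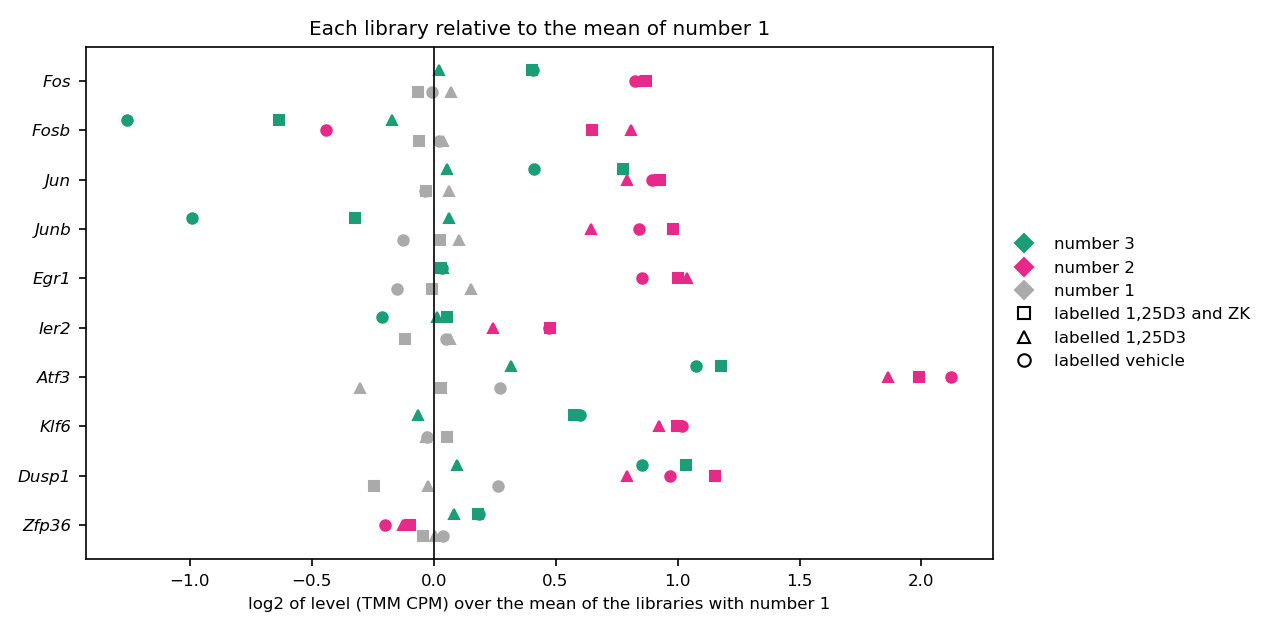
Log2 of each library's level (TMM CPM) over the mean of the 3 libraries with number 1 (x axis) for each member (y axis), with color for the number on the label and the symbol for the treatment label. Most members of the library labelled 1,25D3 3 (triangles of number 3) lie near 0, while the libraries labelled 1,25D3 and ZK 3 and vehicle 3 lie between numbers 1 and 2 in *Fos*, *Klf6* and *Atf3* and below 0 in *Fosb* and *Junb*.

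Against number 2, 4 members were called lower in number 3 and none higher, and over all genes tested 11.3% were called (4.53% higher, 6.81% lower). The median of the members was -0.57, against 0.01 for all genes. *Junb* (log2 fold change -1.19, SE 0.22, adjusted p = 0.00327), *Egr1* (-0.93, SE 0.10, adjusted p = 0.000193) and *Atf3* (-1.07, SE 0.20, adjusted p = 0.00421) did not overlap between the groups. In all, 7 members did not overlap with number 3 the lower, as in 18.9% of all genes, and 1 with number 3 the higher, as in 17.9%. *Fosb* (-1.13, SE 0.34, adjusted p = 0.0382) did overlap, and its call was lost in the fit of only the 6 libraries and without each of 4 libraries, those labelled 1,25D3 2, 1,25D3 and ZK 2, vehicle 3 and 1,25D3 and ZK 3.

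*Fos* (-0.56), *Klf6* (-0.58) and *Ier2* (-0.45) passed the test in the lower direction but not the minimum fold, and *Zfp36* (0.29) passed it in the higher direction. Log2 fold changes of *Jun* (-0.42, adjusted p = 0.0639) and *Dusp1* (-0.24, adjusted p = 0.482) did not pass. *Dusp1* was at 6.28, 3.27 and 5.54 TMM CPM in number 3, against 6.82, 5.31 and 6.00 in number 2, and its 95% interval ran from -0.72 to 0.25. Without the library labelled 1,25D3 3 the called members were again *Junb*, *Egr1*, *Atf3* and *Fosb*. That fit called 2328 of 15002 genes, 971 higher and 1357 lower, against 1702 with all libraries.

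Members were next compared by treatment label, which the study was designed around. No member was called between any labels, and no gene was called at all in edgeR's quasi-likelihood test (0.0% of those tested in each of the 3 comparisons). At an unadjusted p under 0.05 there were 135 genes for 1,25D3 against vehicle, 24 for 1,25D3 and ZK against vehicle and 147 for 1,25D3 and ZK against 1,25D3, and DESeq2 and limma voom called no gene either. For every member the 3 libraries of one label overlapped those of the others. The share of all genes that did so was not counted. Each label holds libraries of all 3 numbers. Since *Cyp24a1* contradicts these labels, the absence of calls between them is not read as an absence of treatment effects.

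*Fos* averaged 119 ± 38.0 TMM CPM in the libraries labelled 1,25D3 and ZK, 112 ± 38.5 in those labelled 1,25D3 and 119 ± 33.9 in those labelled vehicle (SD, n = 3 each). Its log2 fold change was -0.08 for 1,25D3 over vehicle (95% interval -0.81 to 0.65) and 0.01 for 1,25D3 and ZK over vehicle (-0.72 to 0.74). These fits have no block. With the number as a replicate block the interval of *Fos* narrowed to -0.34 to 0.16 for 1,25D3 and to -0.25 to 0.25 for 1,25D3 and ZK, each over vehicle, and no member was called. *Egr1* averaged 7.19 ± 3.07, 7.50 ± 3.05 and 6.67 ± 2.63 in the libraries labelled 1,25D3 and ZK, 1,25D3 and vehicle. Its 95% intervals over vehicle were -0.80 to 1.02 for 1,25D3 and ZK and -0.74 to 1.08 for 1,25D3. With the block they were -0.14 to 0.33 and -0.07 to 0.40. The block takes same-numbered libraries as pairs. In number 3 the library labelled 1,25D3 did not deviate together with that labelled vehicle (correlation -0.0319) or 1,25D3 and ZK (-0.0135). Blocked intervals that involve the label 1,25D3 are limited by this. If the number marks a treatment, which the sources used here do not settle, the block also removes that treatment's difference. Blocked intervals then set no bound on an effect of treatment.

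*Fosb* gave the largest differences by label, 0.79 for 1,25D3 over vehicle (SE 0.45, adjusted p = 0.9997) and 0.57 for 1,25D3 and ZK over vehicle (SE 0.45). Its mean was 1.34 TMM CPM in the libraries labelled 1,25D3 and ZK, 1.55 in those labelled 1,25D3 and 0.915 in those labelled vehicle. *Atf3* differed by -0.42 (SE 0.69) and *Dusp1* by -0.39 (SE 0.38) for 1,25D3 over vehicle. With the replicate block, some 95% intervals lay wholly on one side of no change. These were *Fosb* (0.123 to 1.42) and *Atf3* (-0.833 to -0.151) for 1,25D3 over vehicle. *Atf3* for 1,25D3 and ZK over 1,25D3 (0.077 to 0.758) was the other. None of them was called, and the limits of the block given above hold for them. *Zfp36*, which varied least between numbers, had the narrowest intervals, -0.34 to 0.29 for 1,25D3 and -0.31 to 0.32 for 1,25D3 and ZK over vehicle.

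**Figure D4:**
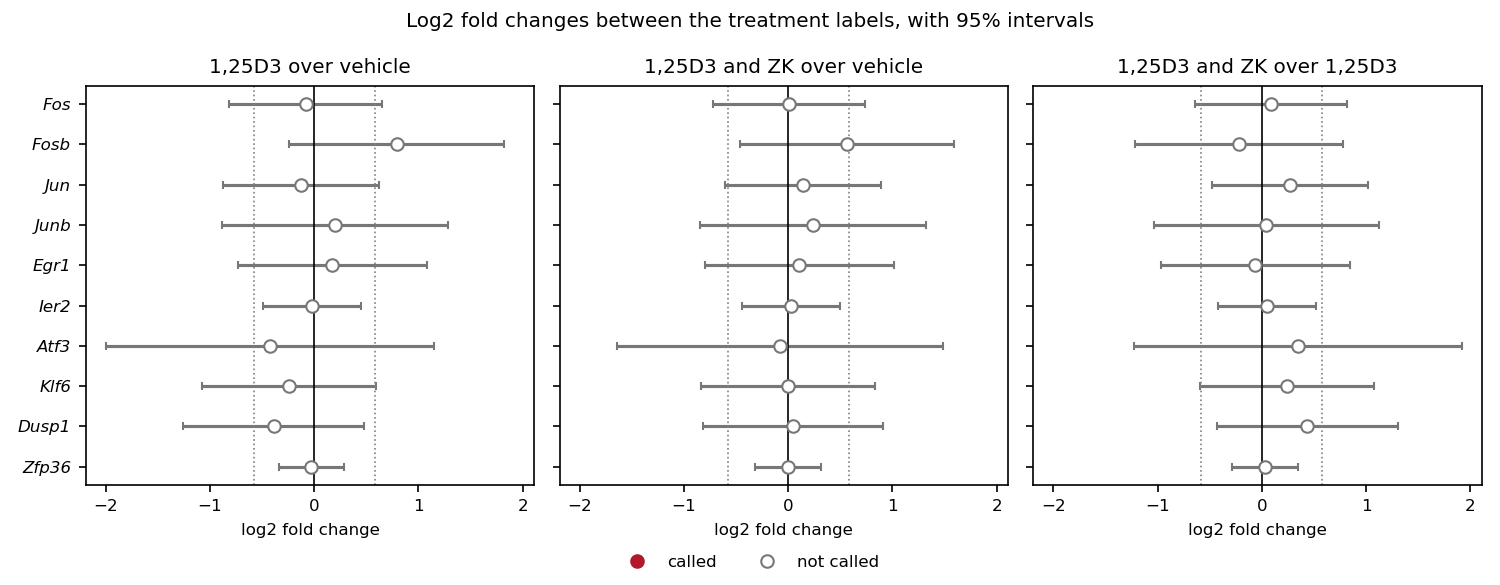
Log2 fold change of each member (x axis) with its 95% interval between treatment labels, for 1,25D3 over vehicle, 1,25D3 and ZK over vehicle and 1,25D3 and ZK over 1,25D3. In these fits without a block every interval includes 0 and no member was called.

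Other immediate early genes were read from a list of 45, of which 42 passed the filter. In number 2 against number 1, 17 of 42 were called higher and 2 lower (12.2% and 8.25% of all genes), with a median log2 fold change of 0.57. The largest were *Gadd45b* (2.21) and *Gadd45g* (1.89), of the growth arrest and DNA damage family, and *Socs3* (1.82), an inhibitor of cytokine signaling. *Gadd45b* was at 35.8, 27.4 and 33.6 TMM CPM in number 2, against 6.89, 7.46 and 6.55 in number 1. *Socs3* was at 20.0, 17.7 and 20.0 in number 2, against 5.22, 5.55 and 5.52 in number 1, again with no overlap.

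Other regulators of the pathway, named after their values were seen, were also called higher in number 2 than in number 1. They included *Dusp6* (1.15), the phosphatase that acts on ERK, the early factors *Maff* (1.30), *Klf10* (1.19), *Egr2* (0.91) and *Nr4a1* (0.99), and *Trib1* (0.96). The genes called lower were *Sgk1*, a kinase that regulates sodium transport, and *Tnfaip3*, an inhibitor of NF-kappa B signaling. *Sgk1* was at 87.9, 137 and 91.4 TMM CPM in number 2, against 367, 364 and 360 in number 1 (log2 fold change -1.79, SE 0.16, adjusted p = 3.54e-05), and *Tnfaip3* had a log2 fold change of -0.79. *Fosl1*, a FOS-family gene below the filter, was at 0.825, 0.698 and 0.738 in number 2 and was listed at 0 in all libraries with number 1.

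In number 3 against number 2, 12 of the 42 were called lower and 2 higher (6.81% and 4.53% of all genes). *Socs3* (-1.37), *Gadd45b* (-1.34) and *Cebpd* (-1.30), which encodes a C/EBP factor, were lower, and *Sgk1* (1.84) was higher. Against number 1 none of the 42 was called in number 3. Without the library labelled 1,25D3 3, 7 of the 42 were called higher and 5 lower (11.4% and 7.74% of all genes), among them *Gadd45g* (1.66) and *Plk3* (1.34) higher and *Cebpb* (-1.29) and *Jund* (-1.10) lower, all named after their values were seen. *Jund*, the third JUN gene, was at 74.3, 125 and 36.6 TMM CPM in number 3, against 129, 116 and 113 in number 1. It had its lowest level in the library labelled vehicle 3, as *Junb* did.

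Genes that act upstream were called at about the share of all genes or below it. Of 22 MAP kinases and transcription factors that drive immediate early genes, none was called higher and 2 were called lower in number 2 than in number 1, *Mapk9* (-0.61) and *Mapk3* (-0.59), which encode JNK2 and ERK1, beside 12.2% higher and 8.25% lower over all genes. In number 3 against number 2, 1 of the 22 was called higher and none lower, beside 4.53% and 6.81% over all genes. Transcript levels do not measure the activity of these kinases.

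Each member's closest genes by pattern were sought among 9773 or 9774 genes with a mean of at least 5 TMM CPM, by the root mean square difference of centred log2 levels over the 9 libraries. The closest gene to *Fos* was *Dot1l* (0.0448), followed by *Srpk1* and *Alas1*. For *Klf6* it was *Nt5c2* (0.0441), for *Zfp36* *Ly6e* (0.0313), for *Jun* *Srsf5* (0.0882) and for *Egr1* *Slfn2* (0.0742). *Junb* was closest to *Hes6* (0.109), which was at 24.1 TMM CPM in the library labelled vehicle 3. The closest gene to *Atf3*, *Ada* (0.176), and to *Fosb*, *Npl* (0.211), were less like them. *Ier2* was closest to *Vps16* (0.0679) and *Dusp1* to *Zfp626* (0.0735). *Fosb* and *Dusp1*, with means of 1.265 and 4.722 TMM CPM, were below the minimum level and could not appear as a closest gene. None of the remaining members was among the 3 closest genes of any other member.

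Stress lists were read in number 2 against number 1, where 12.2% of all genes were called higher and 8.25% lower. *Atf4*, the factor of the integrated stress response, was called higher (0.83), as were 6 of 10 of its targets. *Nupr1* (5.27) and *Ddit3* (1.54) were the largest, and none was called lower. The target *Asns* was not called but went the other way. It was at 46.74, 39.26 and 45.29 TMM CPM in number 2, against 60.08, 57.65 and 60.77 in number 1. *Nupr1* was at 173, 34.1 and 177 TMM CPM in number 2, against 2.63, 3.96 and 3.30 in number 1. The summed acinar markers described next were also lowest in the library labelled 1,25D3 2 among those with number 2, at 40430, 8848 and 42020, and their part in the level of *Nupr1* was not tested. Of 14 heat shock genes 3 were called higher, *Hspa1b* (1.57), *Hspa1a* (1.22) and *Hsph1* (0.63). The list summed to 1594 to 1606 TMM CPM in number 2 and 1594 to 1605 in number 1. Most of that sum came from *Hsp90ab1* and *Hspa8*, so it says little about genes at low levels, such as *Hspa1a* and *Hspa1b*. *Hspa1a* and *Hspa1b* are near-identical copies, so their counts are uncertain. Of 15 hypoxia response genes 2 were called higher, *Vegfa* (1.72) and *Adm* (0.90), and 2 lower, *Ankrd37* (-1.58) and *Car9* (-1.05), which is near the shares of all genes.

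Markers of other tissues also differed between the numbers. Fewer cells of a type and less RNA per cell cannot be told apart in bulk tissue. The 14 pancreatic acinar markers, which encode digestive enzymes such as *Cel* and *Cpa1*, summed to 43.0 to 3817 TMM CPM in number 3, 8848 to 42020 in number 2 and 40.9 to 48.5 in number 1. The 4 Brunner gland markers summed to 3.71 to 122, 4742 to 5839 and 2.53 to 3.13 in numbers 3, 2 and 1. The 7 fibroblast markers summed to 120 to 252, 212 to 227 and 115 to 121, and the 13 mitochondrially encoded genes to 34650 to 84000, 28030 to 31310 and 84050 to 97550. In each of these lists, as in the members' sum, the library labelled 1,25D3 3 lay close to or within the range of number 1. Their part in the members' differences was not tested. Among the libraries with number 2, that labelled 1,25D3 2 had the lowest acinar sum and the lowest level of 6 members, *Jun*, *Junb*, *Ier2*, *Atf3*, *Klf6* and *Dusp1*. All 6 were higher there than in every library with number 1. The share of all genes that were lowest in that library was not counted, so no link to the acinar sum is read from this. *Fosb* and *Egr1* were highest in that library, and *Fos* and *Zfp36* lay between the other two.

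**Figure D5:**
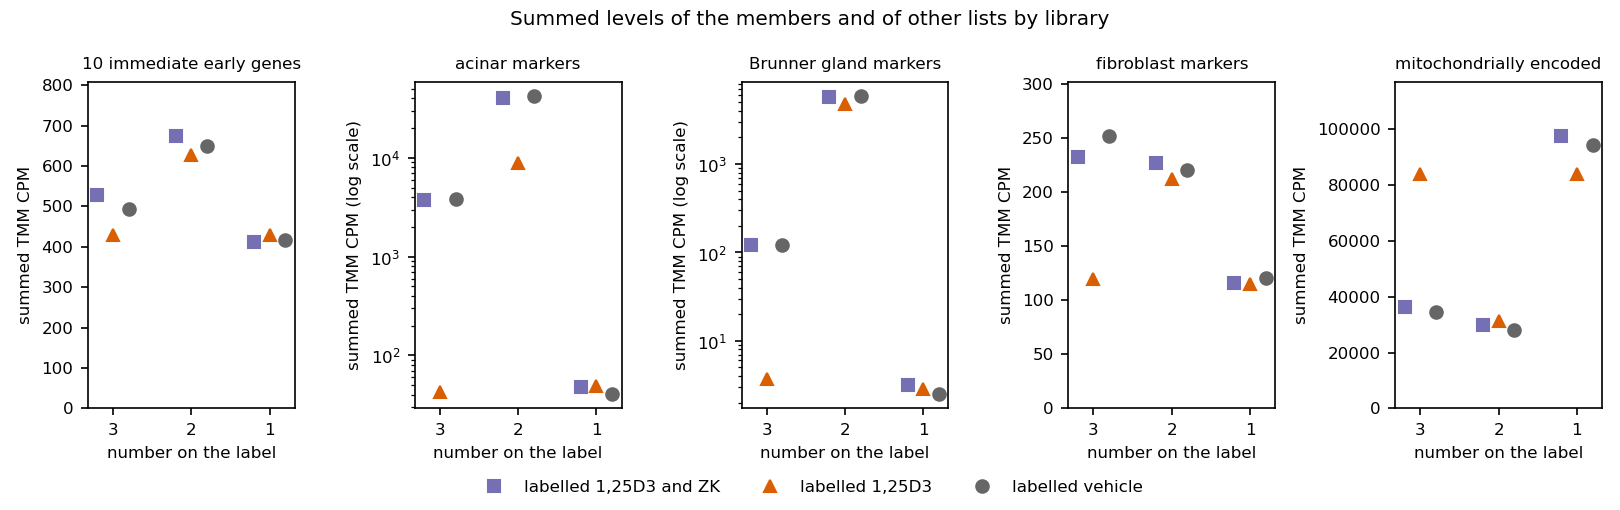
Summed levels (y axis, TMM CPM, logarithmic for acinar and Brunner gland markers) of the 10 members, of 3 marker lists and of the mitochondrially encoded genes in each library, by number on the label (x axis). The library labelled 1,25D3 3 lies close to number 1 in every panel, and the acinar sum of the library labelled 1,25D3 2 (8848) is lower than those of the other libraries with number 2.

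In the annotation of GRCm38, *Fos* lies on chromosome 12 (85473890 to 85477273), *Fosb* on chromosome 7 (19302696 to 19310051), *Jun* on chromosome 4 (95049034 to 95052222) and *Junb* on chromosome 8 (84974484 to 84978718). *Egr1* lies on chromosome 18 (34859823 to 34864984), *Ier2* on chromosome 8 (84661331 to 84662852), *Atf3* on chromosome 1 (191170296 to 191218039) and *Klf6* on chromosome 13 (5861482 to 5870394). *Dusp1* lies on chromosome 17 (26505590 to 26562128) and *Zfp36* on chromosome 7 (28376784 to 28380253). Exons of *Junb* overlap those of the antisense gene *Prdx2* (83820 reads), exons of *Dusp1* those of *Ergic1* (15973 reads), and exons of *Jun* and *Zfp36* those of the weakly counted antisense genes *Junos* (81 reads) and *Gm44710* (87 reads). Since the strand setting of the counting was not given in the sources used here, the levels of these 4 members are uncertain.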

How the data were processed

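Libraries were made from polyA RNA with a stranded kit and read from one end. Bases were called with bcl2fastq 2.17.1.14, adapter dimers were removed with DimerRemover, and reads were aligned to mm10 with Tophat and Bowtie2 and counted per gene with HTSeq. The authors deposited raw whole-number counts, not normalized, for 48709 genes. How strand was treated in counting, and with which annotation release, was not given in the sources used here. Symbols and coordinates came from GENCODE M21 (48349 identifiers matched). The digit that heads each column was matched to the sample description holding that digit.

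Genes with more than 100 reads (15002) were scaled by TMM and compared with the quasi-likelihood test of edgeR 4.0.16 in R 4.3.3 (all 9 libraries, 1 mean per treatment label or per number), with p-values adjusted by the Benjamini-Hochberg method. A gene was called at an adjusted p under 0.05 where its log2 fold change exceeded 0.58 in size. Fold changes between numbers had no treatment term, and those between treatments no block. The SE was obtained by dividing the log2 fold change by the root of the F statistic. Same-numbered libraries deviated together for each number when 1,25D3 and ZK was compared with vehicle (correlations 0.892 to 0.948). The numbers were therefore taken to pair that comparison, from the data and not the design. In the comparisons with the label 1,25D3 the pairing did not hold for number 3 (correlations -0.0319 and -0.0135). Alternatives were DESeq2 1.42.0 and its size factors, voom of limma 3.58.1, total counts, other filters, no minimum fold, only the 6 libraries compared, a treatment term or a replicate block, and each library left out. The test was also tried on simulated data. From other lists up to 4 called genes of largest fold change were named, or else the 2 of highest level. Members and lists were chosen with earlier results of these data known. Depth was 22561400 to 41207455 counts per library.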

Additional observations from a re-analysis of the deposited data

How the results depend on the processing

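With the replicate block, whose limits are given above, 0 genes were called in each treatment comparison of all 9 libraries. Where only the 6 libraries compared were fitted with the replicate block, 2 genes were called for 1,25D3 and ZK against vehicle, neither of them a member, and 0 in the other comparisons. Without a minimum fold change, 5751 genes were called for number 2 against number 1, and 3475 genes and 8 members for number 3 against number 2. For number 3 against number 1, DESeq2 called 398 genes and 1 member and a fit with no filter beyond 1 read called 467 genes and 1 member. Leaving out each library in turn gave 0 to 2873 genes and 0 to 5 members there, and only the fit without the library labelled 1,25D3 3 called any. With total counts in place of TMM, added after the data were seen, the calls for number 2 against number 1 split into 2651 higher and 630 lower, against 1830 and 1237 with TMM. *Junb* lost its call for number 2 against number 1 without the library labelled vehicle 1 or that labelled 1,25D3 and ZK 2, as given above. No called result reversed under any alternative that was run, while uncalled values of *Zfp36* and *Ier2* changed sign with total counts, as given above. Among log2 fold changes of single members, 846 kept their side of the threshold, 17 gained a call and 7 lost one. Depth limits *Fosb*, with 21 to 89 reads per library, and 3 libraries a group left intervals between treatment labels that reach beyond a log2 change of 0.58 for 8 members, all but *Ier2* and *Zfp36*, in each treatment comparison without a block, and for 2 to 4 members with the replicate block.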
